A study of Mus musculus with 6 samples.

Results

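The brush border digestive enzymes are 9 genes, taken by name and not by a cut on their values: Anpep, Dpp4, Ace, Enpep, Lct, Sis, Mgam, Treh and Alpi. All 9 are among the 24736 gene symbols of the expression table, and all 9 were among the 12268 genes tested. RNA sequencing was performed on intestinal crypts, the pits of the gut lining that hold its stem cells, of 3 WT mice and 3 Mtg16 knockout mice (Mtg16-/-, here Mtg16 KO), with 1 library per replicate in what the design calls biological triplicates. All were males of 12 weeks, and the crypts were released with EDTA from the whole length of the gut. The labels describe the knockout as induced by CRISPR, while the study's methods describe Mtg16-/- mice received as a gift, and neither names a promoter or Cre that would confine it to a cell type. MTG16 is a transcriptional co-repressor encoded by Cbfa2t3, and the comparison asks how crypt gene expression differs without it.

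The brush border is the carpet of microvilli on the side of the enterocyte, the absorptive cell of the gut, that faces the food. Its digestive enzymes are glycoproteins anchored in the microvillus membrane with their active sites outward, where they make the last cuts that free amino acids and simple sugars for uptake. Enterocytes make most of these enzymes as they leave the crypt and mature along the villus, so the genes are used as markers of absorptive differentiation. Of the 9, Anpep, Dpp4, Ace and Enpep encode peptidases, Lct, Sis, Mgam and Treh encode enzymes that split sugars, and Alpi encodes intestinal alkaline phosphatase.

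All 9 enzyme genes had lower mean levels in the libraries labelled Mtg16 KO, with log2 fold changes from -1.38 to -0.54 and a median of -0.91, while the median of all tested genes was -0.03. A negative log2 fold change was found for 53.6% of tested genes. None of the 9 passed limma's test at an adjusted p under 0.1, which 4 genes, 0.0326% of those tested, passed (0.0163% lower and 0.0163% higher). The test was run on log2(TPM + 1), where TPM is a transcript level corrected for gene length and scaled so that every library has an equal sum. It adjusted p-values over all tested genes by the Benjamini-Hochberg method. When the replicate number was added to the model as a block, all 9 were called lower, as were 6.65% of tested genes. Whether mice of the same number belong together is not known. At an unadjusted p under 0.05, 3 of the 9 stood out (Treh, Alpi and Lct), beside 8.05% of tested genes that were lower at that limit and 1789 genes in either direction. In 2 of the 9, Treh and Alpi, every Mtg16 KO library lay below every WT library, as in 11.1% of tested genes. WT replicate 1 was the highest of the 6 libraries for all 9 genes, at 1.99 to 2.79 times the next WT library, whereas it was the highest library for 31.4% of tested genes. Without it the median of the 9 was -0.40 (range -0.91 to -0.16), against -0.03 for all tested genes, of which 54.8% were negative. None of the 9 was then called, where 0.139% of tested genes were called lower. Treh and Alpi still showed no overlap, as did 16.9% of tested genes, and again had an unadjusted p under 0.05.

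The 250 bases upstream of the annotated start are shown for 4 of the genes, Sis as the standard model of an enterocyte promoter, and Treh, Alpi and Lct as the genes that were lower relative to Sis (values further on). They were taken from RefSeq GRCm38.p6, the assembly that the name mm10 stands for, where all 9 genes had a window and Ace had windows at 2 starts. Sequences run 5′ to 3′ on the strand of the gene and end at the base before the start. Capitals mark matches, on either strand, to 7 short letter strings that factors of the enterocyte or the basal machinery are known to favour. These are GTTAAT for HNF1, CAATAAA for CDX, AGATAA for GATA factors, CAAAGTCCA for HNF4, CAGCTG and CAGATG for E-box proteins, and TATAAA for the TATA-binding protein. Sis lies at chr3:72967864-72968113 (minus strand), Treh at chr9:44672983-44673232 (plus strand), Alpi at chr1:87101607-87101856 (minus strand) and Lct at chr1:128328319-128328568 (minus strand).
Sis: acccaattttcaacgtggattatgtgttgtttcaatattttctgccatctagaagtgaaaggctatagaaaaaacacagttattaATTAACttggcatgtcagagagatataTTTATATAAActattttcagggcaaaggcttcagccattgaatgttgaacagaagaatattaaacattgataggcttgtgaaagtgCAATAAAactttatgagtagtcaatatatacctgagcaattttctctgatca
Treh: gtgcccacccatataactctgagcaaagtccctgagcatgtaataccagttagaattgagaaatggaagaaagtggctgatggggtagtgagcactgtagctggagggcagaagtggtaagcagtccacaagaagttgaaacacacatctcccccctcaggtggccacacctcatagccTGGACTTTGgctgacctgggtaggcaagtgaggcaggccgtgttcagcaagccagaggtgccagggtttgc
Alpi: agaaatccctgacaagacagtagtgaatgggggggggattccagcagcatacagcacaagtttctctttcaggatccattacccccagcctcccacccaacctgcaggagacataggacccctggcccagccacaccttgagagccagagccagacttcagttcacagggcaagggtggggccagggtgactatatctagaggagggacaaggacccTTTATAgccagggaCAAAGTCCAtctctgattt
Lct: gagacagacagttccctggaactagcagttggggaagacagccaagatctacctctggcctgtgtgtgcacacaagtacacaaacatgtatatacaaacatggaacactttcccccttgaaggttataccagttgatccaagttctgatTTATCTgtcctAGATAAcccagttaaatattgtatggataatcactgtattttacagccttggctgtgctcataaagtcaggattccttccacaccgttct

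Treh and Alpi were the only genes of the 9 with the HNF4 string CAAAGTCCA in the window, which 0.384% of all 32851 windows hold. In Treh it begins 71 bases before the start, on the opposite strand, and in Alpi 19 bases before the start. Sis alone of the 9 held GTTAAT, found in 6.43% of windows, and CAATAAA, found in 4.2%. These begin 165 and 52 bases before its start, and its pair of overlapping TATAAA matches begin 138 and 134 bases before it. Lct held AGATAA at 101 and 90 bases before the start, a string that Dpp4 and Mgam share and that 9.99% of windows hold. TATAAA was present in 6 of the 9 genes (Alpi, Dpp4, Sis, Enpep, Mgam and Ace) and in 12.4% of windows, CAGCTG in Anpep and Ace (13.0% of windows) and CAGATG in Mgam and Anpep (14.4%). In Ace, TATAAA lay in the window of the first start (chr11:105967698-105967947), which held no other string. Its CAGCTG lay only in the window of the other start (chr11:105974939-105975188), inside the gene. Matches of different strings shared no bases in the windows of the 9 genes, and a match is a description of the letters, not of binding. The shares are over all windows, not those of enterocyte genes. Any link between the matches and the levels of these genes was not tested.

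The 9 genes were among the highest of the tested genes, ranking from 67 (Anpep) to 1289 (Treh) of 12268 by mean TPM, that is within the top 10.5%. Anpep was the highest, Mgam the second and Sis the third in each of the 6 libraries. Enpep, Ace and Alpi exchanged places 4 to 6 from library to library, Lct held place 7 or 8, Dpp4 places 7 to 9 and Treh place 8 or 9. TPM is per length, so these levels can be set side by side. Across libraries, however, the ranges of every neighbouring pair in this order overlapped within each genotype. The summed TPM of the 9 genes was 10322, 4021 and 4706 in WT and 5023, 2991 and 2185 in Mtg16 KO. Mtg16 KO replicate 1 thus lay above WT replicates 2 and 3, and the groups overlapped.

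**Figure D1:**
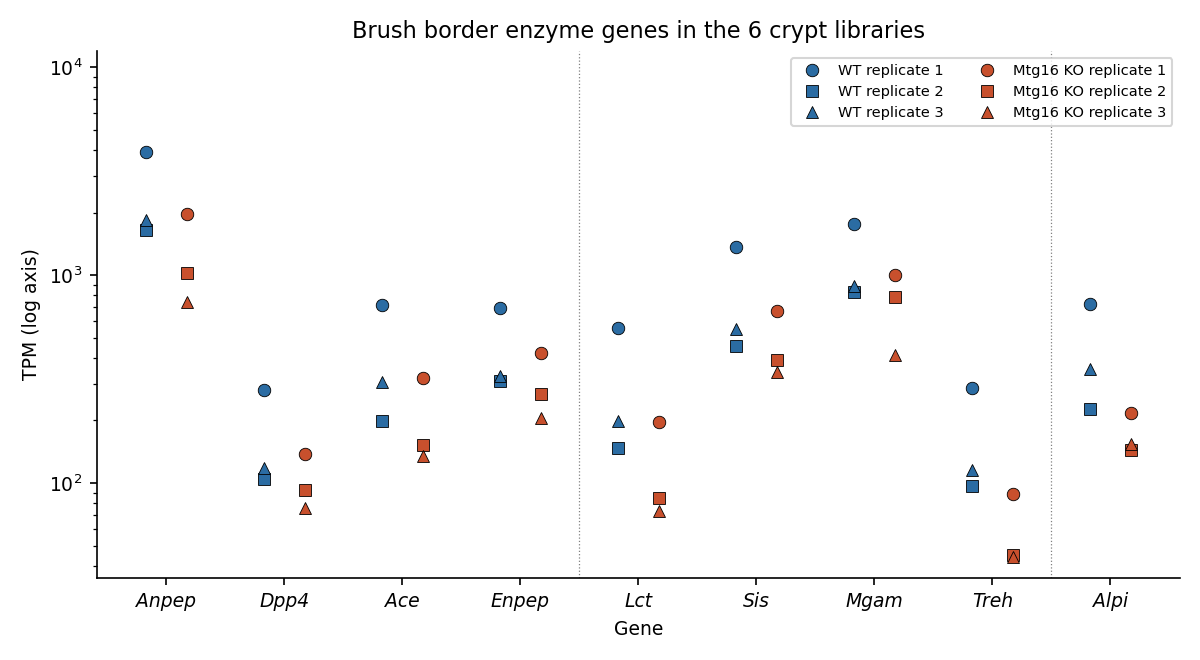
TPM (log axis) of the 9 enzyme genes in the 3 WT libraries (blue) and the 3 Mtg16 KO libraries (red), with a marker shape for each replicate number; dotted lines separate peptidases, sugar-splitting enzymes and the phosphatase. WT replicate 1 is the highest point for every gene, Mtg16 KO replicates 2 and 3 lie below all WT points for every gene, and the groups are fully separate for Treh and Alpi.

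Among the peptidases, Anpep (chr7:79821803-79848210) encodes aminopeptidase N, which removes neutral amino acids from the free end of peptides. Its TPM was 3919, 1647 and 1846 in WT and 1968, 1029 and 744 in Mtg16 KO. The groups overlapped because Mtg16 KO replicate 1 lay above WT replicates 2 and 3, while the other Mtg16 KO libraries lay below every WT library. The means were 2471 ± 1258 (SD, n = 3) and 1247 ± 640 (SD, n = 3), a log2 fold change of -0.99 ± 0.43 (SE, limma adjusted p = 0.343) that was -0.60 without WT replicate 1.

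Ace (chr11:105967948-105989964) encodes angiotensin-converting enzyme, which removes dipeptides from the carboxyl end of peptides. It had a TPM of 715, 200 and 305 in WT and of 320, 152 and 135 in Mtg16 KO. WT replicate 1 stood far above the other WT libraries, and Mtg16 KO replicate 1 lay above WT replicates 2 and 3. The log2 fold change was -0.91 ± 0.48 (SE, limma adjusted p = 0.414), or -0.40 without WT replicate 1.

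Dpp4 (chr2:62330073-62412315) encodes dipeptidyl peptidase 4, which cuts dipeptides after proline or alanine and is also present on T cells as CD26. Its TPM was 280, 104 and 118 in WT and 138, 92.6 and 75.7 in Mtg16 KO. Again only Mtg16 KO replicate 1 reached into the WT range. The log2 fold change was -0.61 ± 0.38 (SE, limma adjusted p = 0.474), and without WT replicate 1 it was -0.16. All 8 T cell markers listed for these data were also lower in Mtg16 KO, none of them called, with a median log2 fold change of -0.81. Their summed TPM ranged from 142 to 483 in WT and from 78.8 to 229 in Mtg16 KO, with overlap, and all 8 were detected in every library. Their part in the Dpp4 values was not tested.

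Enpep (chr3:129269177-129332749) encodes aminopeptidase A, which removes acidic amino acids. Levels were 698, 310 and 326 TPM in WT and 420, 267 and 204 TPM in Mtg16 KO. It had the smallest difference of the 9 genes, a log2 fold change of -0.54 ± 0.36 (SE, limma adjusted p = 0.503), and -0.16 without WT replicate 1. Ace is also known from endothelium, and Anpep and Enpep from pericytes. The markers of these cells were near 0, with summed TPM of 4.83 to 6.75 in WT and 5.21 to 6.07 in Mtg16 KO for 8 endothelial genes, and of 4.25 to 8.44 and 4.30 to 6.79 for 9 fibroblast and pericyte genes.

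Among the sugar-splitting enzymes, Sis (chr3:72888557-72967863) encodes sucrase-isomaltase, which splits sucrose and the branch points of starch fragments. Its TPM was 1369, 454 and 551 in WT and 669, 390 and 342 in Mtg16 KO. Mtg16 KO replicate 1 exceeded WT replicates 2 and 3, and the remaining Mtg16 KO libraries lay below every WT library. The log2 fold change was -0.65 ± 0.42 (SE, limma adjusted p = 0.491) and -0.16 without WT replicate 1.

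Mgam (chr6:40628831-40769123) encodes maltase-glucoamylase, a relative of sucrase-isomaltase that frees glucose from the ends of starch fragments. It had a TPM of 1770, 834 and 890 in WT and of 1006, 788 and 413 in Mtg16 KO. Mtg16 KO replicate 2 lay just under WT replicate 2 and replicate 3 far under it. The log2 fold change was -0.67 ± 0.39 (SE, limma adjusted p = 0.442), or -0.32 without WT replicate 1.

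Lct (chr1:128284756-128328318) encodes lactase, which splits milk sugar and is known to be highest in the suckling animal. Levels were 557, 147 and 200 TPM in WT and 196, 84.3 and 73.0 TPM in Mtg16 KO. The groups overlapped only where Mtg16 KO replicate 1 lay between the lower pair of WT libraries. The log2 fold change was -1.25 ± 0.53 (SE, limma adjusted p = 0.333), and -0.68 without WT replicate 1.

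Treh (chr9:44673233-44686305) encodes trehalase, which splits trehalose, a sugar of fungi and insects. Its TPM was 287, 96.7 and 116 in WT and 88.5, 44.9 and 44.3 in Mtg16 KO. Every Mtg16 KO library lay below every WT library. The mean in Mtg16 KO, 59.2 ± 25.4 TPM (SD, n = 3), was 0.356 of the WT mean of 166 ± 105 TPM (SD, n = 3), and 0.557 of it without WT replicate 1. This was the most negative log2 fold change of the 9, -1.38 ± 0.43 (SE), with a limma adjusted p of 0.272. A two-sided exact permutation test gave p = 0.1, below which 3 libraries against 3 cannot go.

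Alpi (chr1:87098002-87101606) encodes intestinal alkaline phosphatase, which removes phosphate groups from dietary and bacterial molecules at the microvillus surface. It had a TPM of 728, 227 and 354 in WT and of 218, 143 and 154 in Mtg16 KO. The groups did not overlap, although WT replicate 2 and Mtg16 KO replicate 1 lay close together. The means were 436 ± 260 TPM (SD, n = 3) and 172 ± 40.1 TPM (SD, n = 3), a log2 fold change of -1.20 ± 0.39 (SE, limma adjusted p = 0.279) that was -0.74 without WT replicate 1. The two-sided exact permutation test again gave p = 0.1, its lower limit. Akp3, a close relative of Alpi with which reads can be shared, had TPM of 255, 41.8 and 134 in WT and of 29.3, 49.2 and 125 in Mtg16 KO, so the groups overlapped there. Shared reads were not examined here, and a split of them by the quantification would make the value of Alpi alone uncertain. Mtg16 KO replicate 3 had 154 TPM of Alpi and 125 of Akp3, and WT replicate 2 had 227 and 41.8. The separation of the groups in Alpi thus depends on how reads were divided between the 2 genes.

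With 1 weight per library fitted from the data (limma's array weights), Treh (adjusted p = 0.0853) and Alpi (adjusted p = 0.0833) were called lower, together with 3.54% of tested genes. WT replicate 1 had the lowest weight (0.320) and WT replicate 3 the highest (3.10).

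**Figure D2:**
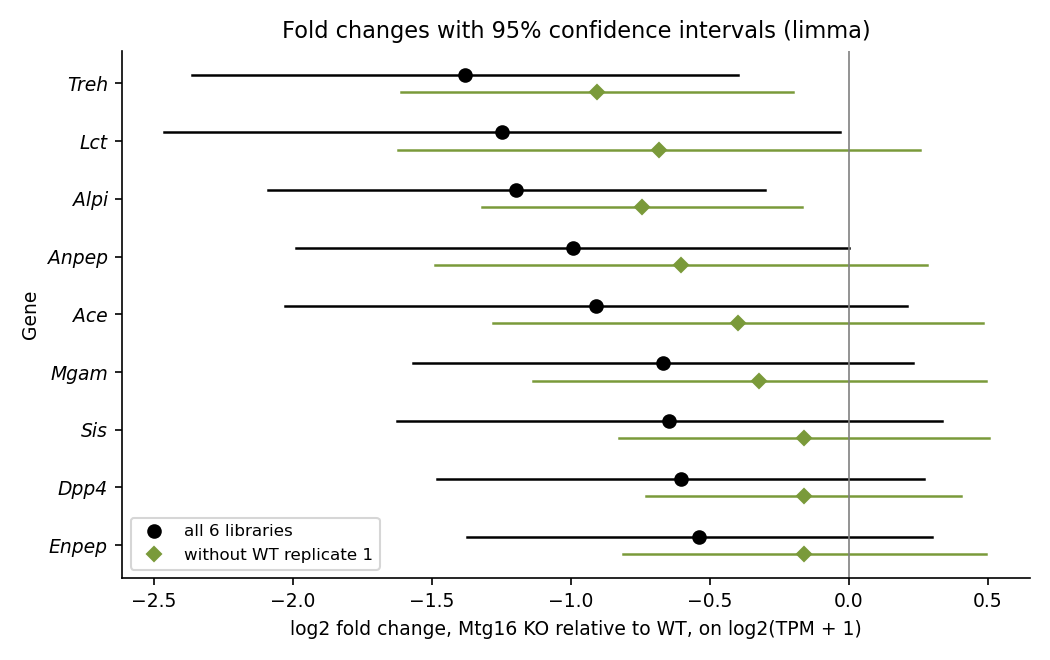
The log2 fold change of each enzyme gene (Mtg16 KO relative to WT, on log2(TPM + 1)) with its 95% confidence interval from limma, for all 6 libraries (black) and without WT replicate 1 (green). All points lie below 0, from -1.38 to -0.54 with all libraries and from -0.91 to -0.16 without WT replicate 1; the intervals of Treh and Alpi exclude 0 in both fits before adjustment.

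The libraries were ordered nearly alike by each gene. WT replicate 2 was the lowest WT library and Mtg16 KO replicate 1 the highest Mtg16 KO library for all 9 genes. Mtg16 KO replicate 1 lay above WT replicate 2 for 7 of the 9. Mtg16 KO replicates 2 and 3 were below every WT library for all 9. Pearson's r between pairs of the 9 genes, on log2(TPM + 1) over the 6 libraries, had a median of 0.958 and ranged from 0.825 to 0.997. The points share their libraries, so this is given as a description. The 10 other tested genes whose profile was most like the mean profile of the 9 enzymes had r of 0.997 to 0.999 over the 6 libraries. They included Tcn2, Slc41a2, Lasp1, Slc6a19, Mavs, Gm11127, Hes2 and Spint1. Among them, Slc6a19 encodes the brush border transporter of neutral amino acids, with a log2 fold change of -1.03 (limma adjusted p = 0.340).

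Because the levels moved together from library to library, each enzyme was also expressed as a percentage of Sis in the same library, a comparison chosen after the values were seen. Treh was 20.9%, 21.3% and 21.1% of Sis in WT and 13.2%, 11.5% and 12.9% in Mtg16 KO. The WT values were nearly equal, WT replicate 1 included, and all 3 lay far above the Mtg16 KO values. The means were 21.1% ± 0.172 (SD, n = 3) and 12.6% ± 0.922 (SD, n = 3), a log2 difference of -0.75 ± 0.063 (SE), with p = 0.1 in the two-sided exact permutation test, its lower limit.

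Lct was 40.7%, 32.4% and 36.3% of Sis in WT and 29.3%, 21.6% and 21.3% in Mtg16 KO, a log2 difference of -0.61 ± 0.18 (SE). Alpi was 53.2%, 50.0% and 64.3% of Sis in WT and 32.5%, 36.8% and 45.1% in Mtg16 KO, a log2 difference of -0.55 ± 0.18 (SE). Neither showed overlap (p = 0.1 for each in the two-sided exact permutation test, its lower limit). Among tested genes, on log2(TPM + 1), 0.889% had a ratio to Sis that was lower in every Mtg16 KO library than in every WT library, and 2.8% one that was higher in every one. These shares depend on Sis itself, which ran from 454 to 1369 TPM within WT. They hold many genes that do not follow Sis, so they do not measure how rare such a separation is among genes that do. In limma's fit of all genes relative to Sis, which takes its spread partly from all genes, the difference of Treh was -0.74 ± 0.60 (SE, adjusted p = 0.625), and Lct and Alpi also had an adjusted p of 0.625. With array weights on this scale all 3 were called lower, as were 3.88% of tested genes, but the weighting stopped before convergence with a weight of 461 on WT replicate 3 against at most 4.35 on any other library, so no p is given for it.

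The other 5 enzymes overlapped between the groups relative to Sis. Dpp4 stayed between 20.5% and 23.8% of Sis in all 6 libraries, a log2 difference of 0.04 ± 0.075 (SE). The difference was 0.11 ± 0.13 (SE) for Enpep, -0.02 ± 0.26 (SE) for Mgam, -0.27 ± 0.14 (SE) for Ace and -0.35 ± 0.16 (SE) for Anpep. Two-sided exact permutation tests gave p = 0.7 for Dpp4, 0.4 for Enpep, 1 for Mgam and 0.2 for both Ace and Anpep. Of all 36 pairs among the 9 genes, 12 had ratios without overlap in either direction, as did 22.8% of all pairs of tested genes. Treh was part of 5 of the 12, with Dpp4, Ace, Enpep, Sis and Mgam each higher relative to Treh in every Mtg16 KO library. The ratios of Treh to Lct, to Alpi and to Anpep overlapped.

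**Figure D3:**
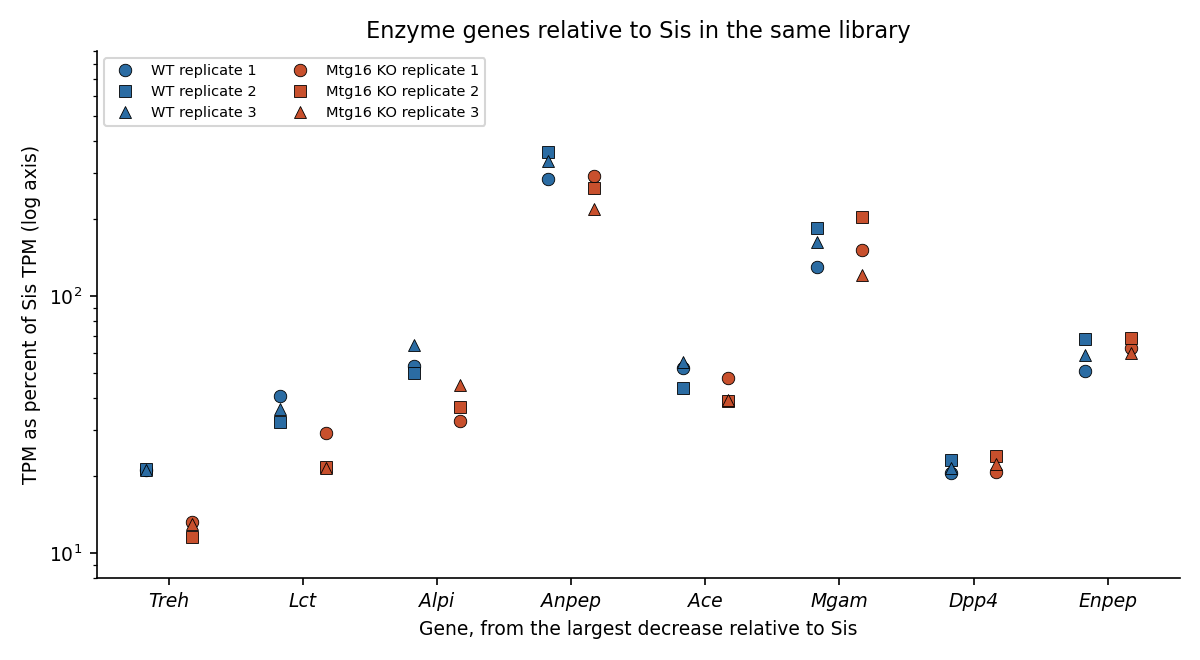
TPM of 8 enzyme genes as a percentage of Sis in the same library (log axis), in WT (blue) and Mtg16 KO (red), with a marker shape for each replicate number. Treh lies between 20.9% and 21.3% in WT and between 11.5% and 13.2% in Mtg16 KO, Lct and Alpi also separate, and the other 5 genes overlap.

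Relative to Vil1, the gene of the microvillus actin-bundling protein villin, the direction was retained by 5 of the 9 enzymes and not by the others. Treh had a log2 fold change of -0.68, Lct of -0.55, Alpi of -0.50, Anpep of -0.29 and Ace of -0.21, while Mgam (0.03), Sis (0.06), Dpp4 (0.10) and Enpep (0.16) lay slightly above 0, and none was called by limma. Vil1 itself had 1857, 1022 and 1093 TPM in WT and 1139, 779 and 543 TPM in Mtg16 KO (log2 fold change -0.70, limma adjusted p = 0.362). Epcam, a marker of all gut epithelium, had 1375, 1087 and 1106 TPM in WT and 1193, 1101 and 1091 TPM in Mtg16 KO (log2 fold change -0.07, limma adjusted p = 0.864), and relative to it all 9 enzymes kept a negative value. The 11 markers of mature enterocytes were all lower in Mtg16 KO, none called, with a median log2 fold change of -1.13 (-0.76 without WT replicate 1). Their summed TPM was 13822 to 39736 in WT and 6997 to 12477 in Mtg16 KO. In whole crypts, fewer enterocytes and less RNA of these genes per enterocyte cannot be told apart. Relative to the mean of these markers, a scale added after the values were seen, only Treh stayed below 0 (-0.05) and the other 8 enzymes lay between 0.09 and 0.80.

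Of 28 other enzymes of digestion at the brush border and in the lumen, 26 were in the table and 19 were tested. None was called, 17 were lower and 2 higher in Mtg16 KO, with a median log2 fold change of -0.87 (-0.29 without WT replicate 1). Those with the highest TPM included Naaladl1, a peptidase, Mep1b, the beta subunit of the metalloprotease meprin, Enpp7, an alkaline sphingomyelinase, Ggt1, a gamma-glutamyltransferase, and Clps, the colipase that assists pancreatic lipase. Their log2 fold changes were -0.21, -0.89, -0.68, -1.13 and 1.25 in that order (limma adjusted p between 0.237 and 0.820). Clps was the exception in direction, with 48.9, 123 and 81.7 TPM in WT and 216, 158 and 200 TPM in Mtg16 KO, without overlap, as in 9.94% of tested genes that were higher. The summed TPM of 4 Paneth cell markers was also higher without overlap. It was 2314, 5326 and 3201 in WT, lowest in WT replicate 1, and 7444, 5877 and 5909 in Mtg16 KO. The sum was mainly Lyz1 and Itln1. Mmp7 overlapped between the groups (log2 fold change 0.12), and none of the 4 was called. Of the 5 other exocrine pancreas markers listed, Cela1 was at 7.82 to 10.5 TPM in all libraries and Prss1 was listed at 0 in all. Ctrb1 and Pnlip were at most 5.50 and 4.82 TPM in WT and at most 0.75 and 0.43 TPM in Mtg16 KO, and Cpa1 was at most 1.55 and 0.30 TPM. The part of these cells in the Clps values was not tested. Tmprss15, which encodes enteropeptidase, the brush border protease that activates trypsinogen, was singled out after its values were seen. It had 16.7, 5 and 6.02 TPM in WT and 0.48, 1.36 and 1.34 TPM in Mtg16 KO, a log2 fold change of -2.17 ± 0.41 (SE, limma adjusted p = 0.17), with no overlap between the groups. The summed TPM of 5 markers of the proximal small intestine, the stretch where enteropeptidase is known to be made, was 308 to 702 in WT and 190 to 287 in Mtg16 KO. All 5 had negative log2 fold changes, with a median of -0.42, and Adh6a made up most of the sum. The 4 ileum markers summed to 1001 to 2332 in WT and 1064 to 2466 in Mtg16 KO, mostly Fabp6 (log2 fold change 0.34), while the other 3 were negative and the median of the 4 was -0.29. None of these markers was called. Their part in the values of Tmprss15, Treh and Lct was not tested.

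Genes listed as sorting the enzymes to the apical membrane or building the microvillus were also lower in mean level. The list also holds Mttp, whose role in chylomicron assembly is neither of these. All 20 were tested, all 20 had a negative value, none was called, and 3 showed no overlap (Rab8a, Anxa2 and Mttp), where 11.1% of tested genes were lower without overlap and 53.6% were negative. The median was -0.55 (-0.31 without WT replicate 1). The 6 with the highest TPM ranged from Lgals4, the galectin that clusters apical glycoproteins, at -0.00069, through Myo1a, the motor that ties the membrane to the actin core, at -0.35, Vil1 at -0.70, Anxa2, an annexin of membrane traffic, at -0.79, and Cdhr5, a cadherin that links neighbouring microvilli, at -0.80, to Mttp, the lipid transfer protein of chylomicron assembly, at -1.14.

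The transcription factors known to act at enterocyte enzyme genes were divided in direction. Of 20 tested, none was called, 12 were lower and 8 higher, with a median log2 fold change of -0.11 (-0.06 without WT replicate 1). The 6 with the highest TPM were Hnf4a (-0.07), Klf5 (0.15), Cdx1 (0.04), Cdx2 (0.45), Isx (-0.13) and Hnf4g (-0.29), with limma adjusted p between 0.265 and 0.920. Cdx2, a homeobox factor of intestinal identity that binds the Sis promoter, had 137, 168 and 176 TPM in WT and 224, 216 and 214 TPM in Mtg16 KO, so every Mtg16 KO library was above every WT library. Hnf4a, the nuclear receptor of enterocyte maturation, lay between 523 and 615 TPM in all 6 libraries. Among the others, singled out after their values were seen, Gata4, the GATA factor of the proximal gut, had 101, 84.3 and 102 TPM in WT and 72.8, 68.7 and 71.6 TPM in Mtg16 KO (log2 fold change -0.42, limma adjusted p = 0.263). Creb3l3 (-1.19) was also below every WT library in each Mtg16 KO library (limma adjusted p = 0.279). Foxa1, also picked after its values were seen, went the other way (log2 fold change 0.52, limma adjusted p = 0.247). Its TPM was 13.3, 16.0 and 13.6 in WT and 19.6, 22.4 and 21.0 in Mtg16 KO. Of the 20 factors, 4 were lower and 3 higher without overlap, beside 11.1% and 9.94% of tested genes.

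**Figure D4:**
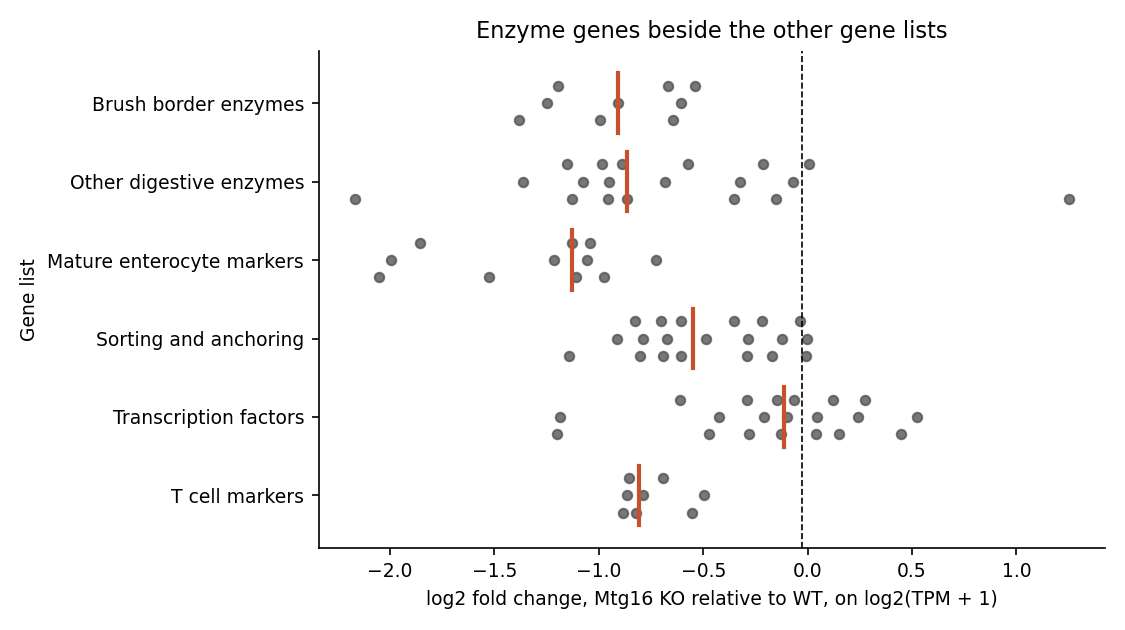
Log2 fold changes (Mtg16 KO relative to WT, on log2(TPM + 1)) of the tested genes of 6 lists, with 1 point per gene, the median of each list as a red bar and the median of all tested genes, -0.03, as a dashed line. The enzymes have a median of -0.91, the mature enterocyte markers of -1.13 and the transcription factors of -0.11.

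Facts of the 6 libraries bear on all of these values. Cbfa2t3 had 3.67, 6.69 and 4.52 TPM in WT and 4.62, 6.43 and 3.23 TPM in the libraries labelled Mtg16 KO (log2 fold change -0.06, limma adjusted p = 0.937). A sum over all exons does not show whether an exon is missing, so the genotype rests on the labels. Epcam and Krt8, which mark the epithelium named in the labels, were at 1087 to 1375 and 2779 to 3310 TPM. The 4 stem cell markers summed to 715, 1133 and 1256 TPM in WT and 1340, 1745 and 1553 TPM in Mtg16 KO. Olfm4 made up most of the sum. Lgr5 and Olfm4 were higher without overlap, Ascl2 and Smoc2 overlapped, and none of the 4 was called. WT replicate 1, the highest library for all 9 enzymes, was thus the lowest for this sum. The cell make-up of that library and its part in the enzyme values were not tested. Pearson's r between libraries was 0.931 to 0.980. Read numbers cannot be recovered from TPM, and sequencing depth is therefore unknown.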

How the data were processed

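RNA was extracted from crypts of 3 WT and 3 Mtg16 KO mice, and libraries were made from 200 ng of total RNA after ribosomal depletion with 14 PCR cycles. The authors deposited TPM values per gene symbol, rounded to 2 decimals. Per the submitters' processing notes, cutadapt 1.9.1, STAR 2.5.2a, RSEM 1.3.0, DESeq2 1.12.3 and the build mm10 were used, with no order given. TPM carries no counts, so DESeq2 was not run here, and depth is unknown.

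The 12268 genes averaging 1 TPM or more were tested on log2(TPM + 1) with limma 3.58.1 (lmFit, eBayes with trend; R 4.3.3) without covariates, and were called at an adjusted p under 0.1. This scale understates changes of genes with low TPM. The calculation was tested on simulated data. Single ratios were compared by two-sided exact permutation tests (scipy 1.17.1).

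The 9 genes and the other lists were chosen with earlier results of these data known. The text names the 9 genes, the 6 tested genes with the highest mean TPM and every called gene of the 3 other lists of the pathway, the 10 genes of most similar profile, Vil1 and Epcam, and says where others were picked after their values were seen. Some genes that this rule names are not reported here. Alternatives were a pseudocount of 0.1, no filter, a mean TPM of at least 5, 3 other scalings, no trend, robust moderation, array weights, the replicate number as a block, each library left out, an adjusted p under 0.05, and levels relative to Vil1 or Epcam. Levels relative to Sis and to the mature enterocyte markers were added after the values were seen. RefSeq GRCm38.p6 gave positions and promoter windows for 9 of 9 genes (24076 of 24736 symbols matched by name).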

Additional observations from a re-analysis of the deposited data

How the results depend on the processing

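Of the 16 settings other than the relative scales, 11 can change a fold change, and all 99 values of the 9 enzyme genes under these were negative. Their median log2 fold change was -0.91 to -0.69 under the settings that keep every library, and -1.29 to -0.40 with each library left out. The count of called enzyme genes was 0 in the main result and in each setting except array weights (2) and the replicate block (9). Over all tested genes, 4 were called, and 855 with array weights, 20 with robust moderation, 15 at a mean TPM of at least 5, 1 with median-ratio rescaling, 1 with quantile normalization, and 0 with no filter, with no intensity trend, after rescaling without the 100 highest genes, or at an adjusted p under 0.05. With each library left out the count was 0 to 20, with 20 without WT replicate 1, 2 without Mtg16 KO replicate 2, 1 without Mtg16 KO replicate 1 and 0 without Mtg16 KO replicate 3. The cause of these shifts was not tested. With array weights, 3 of the other digestive enzymes, 5 of the transcription factors and 1 of the sorting and microvillus genes were called, where the main result called 0 of each.

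With the replicate block, 1201 genes were called, 816 of them lower (6.65% of tested genes), including all 9 enzymes (limma adjusted p from 0.00437 to 0.0942), 10 of the other digestive enzymes, 5 of the transcription factors and 11 of the sorting and microvillus genes. Relative to Sis, Treh (limma adjusted p = 0.0387) and Lct (0.0915) were called with the block and Alpi (0.131) was not, beside 0.978% of tested genes called lower. The replicate numbers name different animals. After the mean of each group was subtracted, libraries with the same number correlated across genes with r = 0.429, 0.0753 and 0.237, so not every pair was over the limit of 0.1 set for pairing, and WT replicate 2 correlated best with Mtg16 KO replicate 3 (0.198). WT replicates 1 and 3 each correlated best with the Mtg16 KO library of their own number, and pairs of unlike number had r from -0.331 to 0.198. Whether mice of the same number shared a litter or a batch is not known. The numbers were therefore not taken to pair the libraries in the main result, and the block stands as an alternative that would change it.

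Relative to Vil1, the log2 fold change changed sign for Dpp4 (0.10), Enpep (0.16), Sis (0.055) and Mgam (0.033). Relative to the mature enterocyte markers it changed sign for Anpep (0.34), Dpp4 (0.73), Ace (0.42), Enpep (0.80), Lct (0.086), Sis (0.69), Mgam (0.67) and Alpi (0.14). With 3 libraries a group, WT replicate 1 being at least 1.99 times the next for each gene, standard errors of the 9 fold changes were 0.36 to 0.53.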
